A study of Homo sapiens with 30 samples.

Results

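The comparison described here set PC3 cells given 3750 nM of the degrader SGI-1776-VHL-02 against PC3 cells given 3750 nM of the inhibitor SGI-1776, both for 48 h. Its members are 12 of the 30 RNA sequencing libraries of the study, 6 per compound, taken by their group labels. PC3 is a human prostate cancer cell line. SGI-1776 inhibits PIM kinases, and the study describes SGI-1776-VHL-02 as a PROTAC, that is, a compound that recruits a ubiquitin ligase to a target protein. The study asked how the transcriptome responds when PIM kinases are inhibited or degraded, and its other 18 libraries came from DMSO (the solvent) and from each compound at 1500 nM, again 6 per group. All groups are the same cell line at the same time, and within each group the labels number 3 libraries as Rep 1 and 3 as Rep 2.

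PIM1, PIM2 and PIM3 are serine/threonine kinases that promote survival, cell cycle entry and protein synthesis, and they are regulated mainly through the amount of protein, since they need no activating phosphorylation. A PROTAC carries a ligand for its target and a ligand for a ubiquitin ligase, and here the name points to VHL, the substrate receptor of a cullin ligase whose best known substrates are the hypoxia-inducible factors. The libraries measure RNA, and PIM protein was not measured.

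The 6 inhibitor libraries held 22520292 to 26241510 counts and the 6 degrader libraries 23506366 to 33472101. Mitochondrially encoded genes took 1.94 to 3.96% of the counts in Rep 1 of the inhibitor and 2.37 to 2.89% in Rep 1 of the degrader, against 0.477 to 1.67% and 1.14 to 1.66% in Rep 2. The epithelial markers KRT8, KRT18, KRT19, KRT7, EPCAM, CDH1 and CLDN4 were expressed in all 30 libraries. Of the prostate luminal markers, KLK3 had no count in any library, while HOXB13, SLC45A3 and TMPRSS2 were expressed. The 7 leukocyte markers summed to 0.622 to 1.30 CPM with the inhibitor and 0.486 to 1.23 CPM with the degrader, where CPM is the count scaled by the effective library size.

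Genes of the amino acid stress response were mostly higher with the degrader than with the inhibitor. FOXO targets, genes of BMP signalling and aryl hydrocarbon receptor targets were mostly lower with the degrader, and DNA replication genes were mostly higher. Of 17499 genes tested with edgeR's quasi-likelihood test, 5451 (31.2%) differed at an adjusted p under 0.05, 3080 (17.6%) higher and 2371 (13.5%) lower with the degrader. With library size as the only scaling the split was 2089 higher and 3364 lower, and the median of all genes moved by -0.05 on the log2 scale, so the balance of directions depends on the scaling. Most differences were small, with a median size of 0.27 on the log2 scale among the genes that passed, and 98 genes were higher and 215 lower by at least 2-fold. The 6 libraries of the degrader all lay above the 6 of the inhibitor in 9.79% of the tested genes and all below in 6.8%. These shares over all genes are the background for the counts that follow. Of the 13624 protein-coding genes tested 4947 passed in either direction, a higher share than over all genes. For lists of protein-coding genes the background is therefore higher than the shares given.

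The Reps were also taken apart. The labels do not say whether the 3 libraries within a Rep came from separate cultures, so the p-values measure the spread between these libraries, which may be technical. In Rep 1 alone 2854 genes were higher and 2339 lower, and in Rep 2 alone 2114 were higher and 1707 lower. Of these calls 2904 were shared, all in the same direction, which is 55.9% of the Rep 1 calls and 76% of the Rep 2 calls. With Rep as a block 3851 genes were higher and 3060 lower, and all 5451 genes were among them. Summing the 3 libraries that share a group and a Rep gave 2 samples per group and 1246 genes that passed, and 5828 did so with Rep as a block besides. Across the 17145 genes fitted in both, the differences in Rep 1 and Rep 2 correlated at a Pearson r of 0.66, as a description over genes that share libraries within each Rep.

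**Figure D1:**
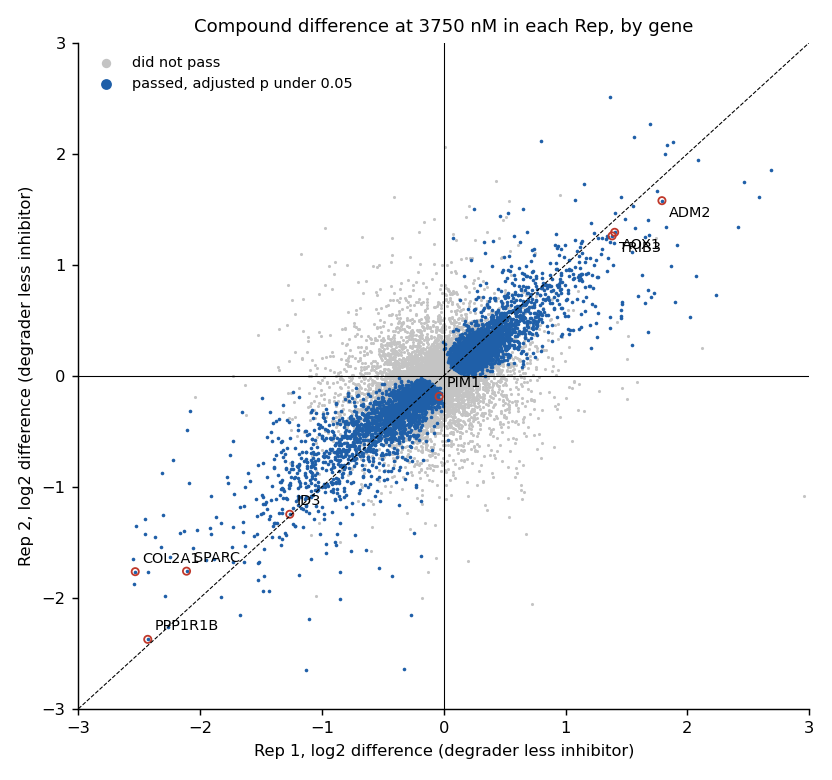
Log2 difference between degrader and inhibitor at 3750 nM in Rep 1 (horizontal) and Rep 2 (vertical), 1 point per gene, with genes that passed in all libraries in blue, 8 genes ringed in red and equality as a dashed line (1 gene lies outside the axes). ADM2 (1.79 and 1.58) and PPP1R1B (-2.43 and -2.37) lie near the dashed line, and PIM1 (-0.04 and -0.19) lies near the centre.

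Most genes of the amino acid stress response were higher with the degrader. In this pathway, kinases that sense missing amino acids, misfolded protein or other stress phosphorylate the initiation factor eIF2, and the transcription factor ATF4 is then translated and switches on genes for amino acid synthesis, import and charging onto tRNA. ATF4 and its partner CEBPG bind a composite element that joins parts of a C/EBP site and a CRE, and its core was searched here as TGATGNAA on both strands (TTNCATCA when read on the other). In the 250 bases before the RefSeq gene start (GRCh38.p14), 178 of 12032 tested genes with a promoter sequence held it (1.48%). Of the 72 tested members of 6 lists of this pathway, 59 had a promoter sequence and 6 held it (10.2%). None of the 12 amino acid transporters and 4 secreted hormones with a promoter sequence held it. The 6 stretches are shown because they are the ones in these lists that carry the element, with the element in capitals and each sequence written 5′ to 3′ on the strand of its gene; a match is a description of letters, not of binding.

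CHAC1 (chr15:40953242-40953289, plus strand): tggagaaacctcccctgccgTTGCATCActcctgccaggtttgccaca

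ASNS (chr7:97872449-97872496, minus strand): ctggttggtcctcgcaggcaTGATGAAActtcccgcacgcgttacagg

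AARS (chr16:70289666-70289713, minus strand): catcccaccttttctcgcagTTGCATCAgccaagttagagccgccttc

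IARS (chr9:92293698-92293730, minus strand): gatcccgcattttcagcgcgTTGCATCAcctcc

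MTHFD1L (chr6:150866337-150866384, plus strand): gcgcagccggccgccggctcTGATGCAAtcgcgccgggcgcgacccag

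ATF3 (chr1:212565196-212565243, plus strand): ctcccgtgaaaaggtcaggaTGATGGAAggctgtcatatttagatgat

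Of these 6 genes, 5 were higher with the degrader, against 17.6% of all genes tested. Their lists were mostly higher too: 11 of 15 regulators, 12 of 14 enzymes, 7 of 9 transsulfuration and glutathione genes and 16 of 18 synthetases. The count therefore does not set genes with the element apart from their lists. CHAC1 breaks down glutathione, and its level was 16.6 CPM in the lowest, 18.8 in the median and 24.0 in the highest inhibitor library, against 53.0, 56.1 and 59.6 CPM with the degrader. All degrader libraries lay above all inhibitor libraries, with a log2 difference of 1.53 ± 0.15 (SE, n = 6 per group, adjusted p = 1.82e-09). AARS and IARS, which charge tRNA with alanine and isoleucine, were 0.62 ± 0.05 and 0.61 ± 0.04 higher. MTHFD1L, a mitochondrial folate enzyme, was 0.51 ± 0.05 higher. ASNS, which makes asparagine, was 1.01 ± 0.17 higher at only 1.49 to 3.55 CPM with the inhibitor and 3.73 to 6.10 CPM with the degrader, and another annotated gene on the same strand overlaps its exons, so its count is uncertain. ATF3, a stress-induced transcription factor, differed by 0.04 (95% interval -0.25 to 0.33, adjusted p = 0.879), and its sign turns when library size is the only scaling. These genes other than CHAC1 are named for their promoter sequence and not for the size of their difference.

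Among 15 regulators of the ATF4 pathway, 11 were higher and none lower with the degrader, with a median log2 difference of 0.60 against 0.00 over all genes. TRIB3 (ENSG00000101255, chromosome 20, 362835 to 397559), a pseudokinase that dampens ATF4 signalling, ran from 97.0 through a median of 106 to 120 CPM with the inhibitor and from 260 through 268 to 281 CPM with the degrader. The groups did not overlap, and the difference was 1.32 ± 0.08 (adjusted p = 2.09e-13), at 1.38 in Rep 1 and 1.26 in Rep 2. JDP2, a partner of AP-1 factors, was 1.15 ± 0.10 higher, DDIT4, an inhibitor of mTORC1, 1.12 ± 0.12, and CEBPG 0.87 ± 0.08. ATF4 itself, named as the factor of the pathway, went from 184 to 218 CPM with the inhibitor to 290 to 314 CPM with the degrader (0.60 ± 0.06, adjusted p = 2.08e-09). ATF3, ATF5, EIF2AK3 and DDIT3 did not pass, and for DDIT3, a factor linked to stress-induced death, the difference was 0.16 (95% interval -0.01 to 0.33, adjusted p = 0.168).

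Enzymes of serine, asparagine and one-carbon metabolism were higher in 12 of 14 cases, and ALDH18A1, an enzyme of proline synthesis, was lower (-0.22 ± 0.04). PHGDH (ENSG00000092621, chromosome 1, 119648411 to 119744226), the first enzyme of serine synthesis, was 155, 164 and 174 CPM (lowest, median and highest) with the inhibitor and 346, 369 and 390 CPM with the degrader. Every degrader library was above every inhibitor library (1.17 ± 0.06, adjusted p = 9.53e-16). PSAT1, the next enzyme of the same pathway, differed by 1.18 ± 0.07, the folate enzyme MTHFD2 by 0.98 ± 0.07 and PCK2, the mitochondrial PEP carboxykinase, by 0.95 ± 0.06. Of 9 transsulfuration and glutathione genes 7 were higher and none lower, with CTH, which makes cysteine, at 0.62 ± 0.08 and the cystine importer SLC7A11 at 0.60 ± 0.13. CBS, the enzyme before CTH, was 1.44 ± 0.25 higher at 8.95 to 18.4 CPM with the degrader, but a near-identical copy of it exists in the genome and its count is uncertain.

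The amino acid transporters split, with 6 of 12 higher and 1 lower. SLC7A5 (ENSG00000103257, chromosome 16, 87830023 to 87869488), which imports leucine and other large neutral amino acids, was 206, 208 and 216 CPM with the inhibitor and 444, 452 and 467 CPM with the degrader. This is a difference of 1.11 ± 0.04 with no overlap (adjusted p = 6.15e-18), and it was 1.10 in Rep 1 and 1.12 in Rep 2. SLC3A2, the heavy chain that pairs with SLC7A5, was 0.83 ± 0.04 higher, the glutamine carrier SLC1A5 0.85 ± 0.04 and the glycine carrier SLC6A9 0.83 ± 0.06. SLC38A2, another importer of neutral amino acids, was the member that was lower (-0.16 ± 0.05, adjusted p = 0.0092), and 3 members were lower without the Rep 2 inhibitor library 1.

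Of 18 cytosolic aminoacyl-tRNA synthetases, the enzymes that load amino acids onto tRNA, 16 were higher with the degrader and only QARS, for glutamine, was lower (-0.15 ± 0.02). GARS, for glycine, was 160, 175 and 185 CPM with the inhibitor and 310, 325 and 346 CPM with the degrader (0.92 ± 0.06, adjusted p = 2.09e-13). MARS, YARS and CARS, for methionine, tyrosine and cysteine, were 0.76 ± 0.03, 0.75 ± 0.05 and 0.70 ± 0.06 higher, each without overlap. Of 4 tested hormones that stressed cells secrete, STC2 (0.79 ± 0.07) and ADM2 were higher. GDF15 did not separate the compounds (-0.04, 95% interval -0.28 to 0.21, adjusted p = 0.859), although it was above DMSO with both, by 1.24 with the inhibitor and 1.20 with the degrader.

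The members of this pathway were also set against DMSO with each compound. Over all genes, 21.8% differed from DMSO with the degrader at 3750 nM and 35.6% with the inhibitor. The degrader was over DMSO in 12 of the 15 regulators, 11 of the 14 enzymes, 9 of the 12 transporters and 12 of the 18 synthetases, and the inhibitor in 8, 1, 5 and 1. The degrader was under DMSO in 1, 3, 0 and 3 of them, and the inhibitor in 2, 3, 0 and 8. For PHGDH the log2 difference from DMSO was 1.20 with the degrader (adjusted p = 1.04e-15) and 0.03 with the inhibitor (adjusted p = 0.752). For SLC7A5 it was 1.03 and -0.09. These 2 comparisons share the DMSO libraries and are given side by side as values. Over the whole table the shares were different. Of the 3080 genes that were higher with the degrader, 23.1% were over DMSO with the degrader and not under it with the inhibitor. This share includes genes over DMSO with both compounds. Another 54.8% were under DMSO with the inhibitor and not over it with the degrader, including 300 genes under DMSO with both. Of the 2371 that were lower, 17.1% were under DMSO with the degrader and not over it with the inhibitor. This share includes genes under DMSO with both compounds. Another 56.5% were over DMSO with the inhibitor and not under it with the degrader, including 172 genes over DMSO with both.

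**Figure D2:**
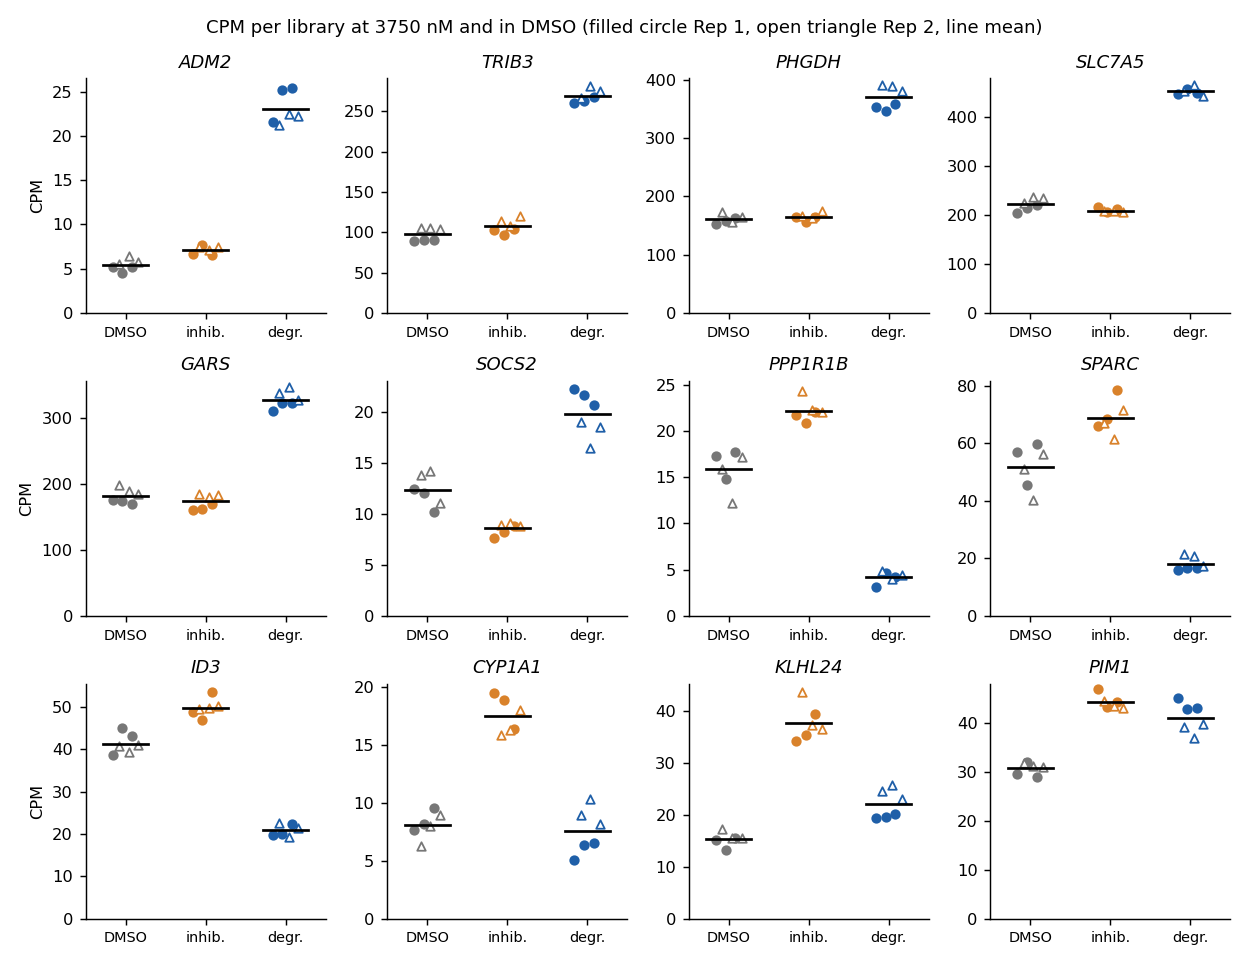
Level in CPM (vertical, from 0) of 12 genes in each library of DMSO, inhibitor and degrader at 3750 nM, with filled circles for Rep 1, open triangles for Rep 2 and a line at the mean of 6 libraries. ADM2, TRIB3, PHGDH, SLC7A5 and GARS are highest with the degrader, KLHL24 is highest with the inhibitor, and PIM1 is above DMSO with both (36.8 to 45.1 CPM with the degrader, 43.0 to 47.0 with the inhibitor).

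The PIM genes themselves differed little. PIM1 ranged over 43.0, 43.8 and 47.0 CPM with the inhibitor and 36.8, 41.2 and 45.1 CPM with the degrader, and the groups overlapped. Its log2 difference was -0.11 ± 0.04 (95% interval -0.20 to -0.01, adjusted p = 0.0711), and the threshold was met when Rep was blocked (adjusted p = 0.0347) and when library size was the only scaling (adjusted p = 0.00668). With libraries summed per Rep and Rep as a block besides it did not pass (adjusted p = 0.180). The difference was -0.04 in Rep 1, where it did not pass (adjusted p = 0.649), and -0.19 in Rep 2, where it did (adjusted p = 0.0118). It also passed without the Rep 1 degrader library 1 (-0.13, adjusted p = 0.0338) and without library 3 of the same Rep (-0.12, adjusted p = 0.0498). PIM2 differed by -0.03 (95% interval -0.14 to 0.08) and PIM3 by -0.02 (95% interval -0.12 to 0.09). HASPIN, a mitotic kinase reported as a further SGI-1776 target, differed by 0.11 (95% interval -0.03 to 0.25, adjusted p = 0.266) at 3750 nM and by 0.39 ± 0.07 at 1500 nM (adjusted p = 6.97e-05).

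Of the 5 ligase genes 3 were higher with the degrader than with the inhibitor. Against DMSO, the inhibitor was under it in 4 of the 5 and over it in 0. The degrader was under it in 0 and over it in 1, which was VHL (0.16). VHL (ENSG00000134086, chromosome 3, 10141008 to 10152220) was 98.4, 103 and 110 CPM with the inhibitor and 111, 116 and 121 CPM with the degrader. The groups did not overlap, the difference was 0.16 ± 0.04 (adjusted p = 0.00217) and 0.15 in each Rep, and it did not pass with libraries summed per Rep (adjusted p = 0.345). ELOC (elongin C) was 0.19 ± 0.05 and the scaffold CUL2 0.18 ± 0.06 higher, while ELOB and RBX1 did not pass. From DMSO, ELOC differed by -0.187 with the inhibitor and 0.005 with the degrader. CUL2 differed from DMSO by -0.173 and 0.002. The inhibitor libraries of CUL2 reached 284 CPM and those of the degrader started at 276, and its call was lost without the Rep 1 inhibitor library 1 (adjusted p = 0.122) and without the Rep 2 degrader library 1 (adjusted p = 0.123). Of 26 hypoxia and HIF target genes, 12 were higher and 3 lower, with a median of 0.11. The growth factor VEGFA was 0.86 ± 0.13 higher at 123 to 170 CPM against 58.7 to 105 CPM, and BNIP3, a mitophagy receptor, was 0.34 ± 0.04 higher. The hormone gene STC1 was 0.50 ± 0.13 higher, by 0.32 in Rep 1, where it did not pass (adjusted p = 0.114), and by 0.71 in Rep 2. ANGPTL4, a regulator of lipoprotein lipase, was lower (-0.39 ± 0.10), by -0.72 in Rep 1 and -0.11 in Rep 2, and it did not pass in Rep 2 alone (adjusted p = 0.596). EGLN3, ANKRD37, ADM, NDRG1 and HIF1A did not pass.

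The 10 genes that were most raised over the inhibitor by the rule for named genes were ADM2, CHAC1, FAM83A, CBS, PI3, KRT17, AOX1, IL32, TRIB3 and BHLHA15. ADM2 (ENSG00000128165, chromosome 22, 50481556 to 50486440), a peptide hormone of the calcitonin family, was 6.53, 7.27 and 7.66 CPM with the inhibitor and 21.2, 22.4 and 25.4 CPM with the degrader (1.69 ± 0.09, adjusted p = 4.38e-15). PI3, the elastase inhibitor elafin, was 72.3, 90.2 and 113 CPM and 213, 247 and 285 CPM (1.43 ± 0.19). AOX1, an aldehyde oxidase, was 16.4, 18.7 and 20.9 CPM and 45.2, 46.7 and 51.9 CPM (1.35 ± 0.07). None of these 3 genes overlapped between the compounds. FAM83A was 1.51 ± 0.28 higher at 5.11 to 9.82 CPM and lost its call with libraries summed per Rep (adjusted p = 0.13). The keratin gene KRT17, which has near-identical pseudogene copies, was 1.38 ± 0.19 higher, the cytokine gene IL32 1.34 ± 0.11 and the secretory cell factor BHLHA15 1.30 ± 0.12.

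The 10 that were most reduced were PPP1R1B, COL2A1, SPARC, TCN1, TSPAN8, FAM198B, LGR5, GBP4, FOLH1 and FCGR2A. PPP1R1B (ENSG00000131771, chromosome 17, 39626740 to 39636626), which encodes the phosphatase inhibitor DARPP-32, was 20.8, 22 and 24.3 CPM with the inhibitor and 3.17, 4.32 and 4.82 CPM with the degrader. Its log2 difference of -2.40 ± 0.10 (adjusted p = 2.1e-17) was -2.43 in Rep 1 and -2.37 in Rep 2. SPARC, a matrix glycoprotein, was 61.5, 67.6 and 78.3 CPM against 15.9, 17.0 and 21.5 CPM (-1.92 ± 0.13), and COL2A1, a fibrillar collagen, was 29, 32.8 and 36.8 CPM against 5.51, 6.95 and 10.9 CPM (-2.11 ± 0.12). In all 3 genes the highest degrader library lay below the lowest inhibitor library. TCN1, a vitamin B12 binding protein, was -1.80 ± 0.13, the tetraspanin TSPAN8 -1.74 ± 0.14, FAM198B -1.64 ± 0.14 and LGR5, a receptor that enhances WNT signalling, -1.63 ± 0.15. GBP4, an interferon-induced GTPase, was -1.57 ± 0.13, the prostate membrane antigen gene FOLH1 -1.54 ± 0.17 and the Fc receptor gene FCGR2A -1.52 ± 0.11; the last 2 have close paralogs and their counts are uncertain.

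Of these 20 genes, several had moved in opposite directions from DMSO. AOX1 fell by 0.68 with the inhibitor and rose by 0.67 with the degrader, and TCN1 rose by 0.92 and fell by 0.88. TSPAN8 rose by 1.16 with the inhibitor and fell by 0.58 with the degrader. In TRIB3, PI3, KRT17, CBS and GBP4 the degrader alone passed against DMSO. In FOLH1 the inhibitor alone passed (1.29, against -0.25 with the degrader), and in FAM83A likewise (-1.08, against 0.43).

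**Figure D3:**
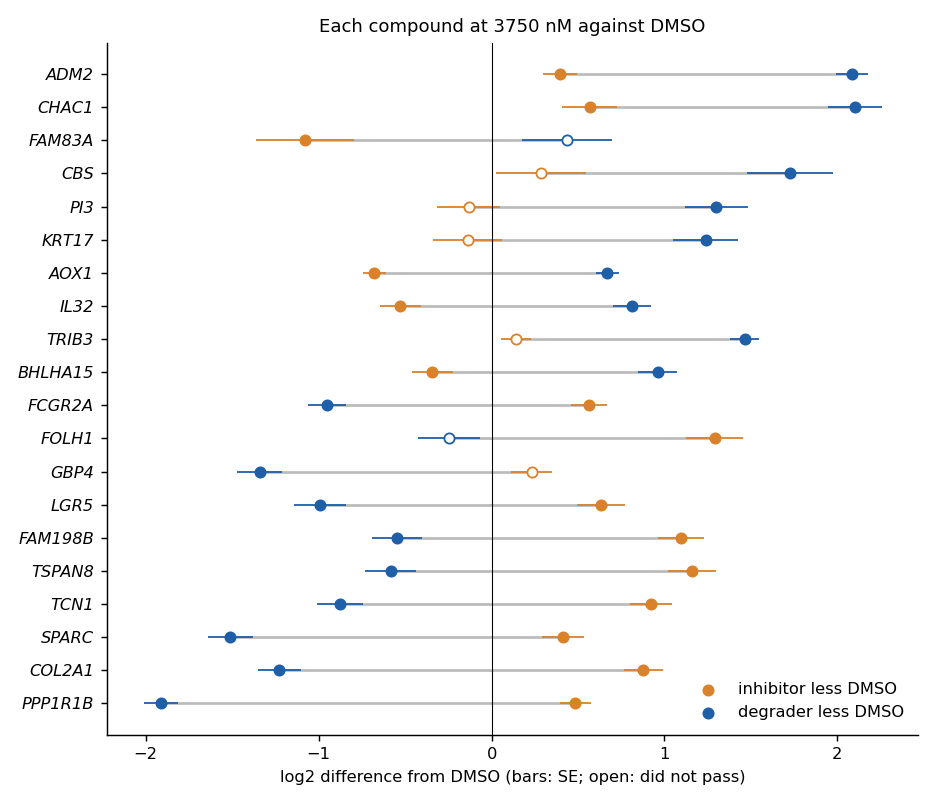
Log2 difference from DMSO (horizontal) at 3750 nM for the 20 genes named above, with the inhibitor in orange, the degrader in blue, bars for the SE and open symbols where the comparison did not pass. The degrader lies to the right of the inhibitor in the upper 10 genes, as in TRIB3 (1.46 against 0.14), and to the left in the lower 10, as in PPP1R1B (-1.91 against 0.49).

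FOXO targets, which rise when PI3K and AKT signalling is low, were lower with the degrader in 17 of 23 cases and higher in 4, with a median of -0.26. KLHL24, a ubiquitin ligase adaptor, was 34.3, 36.9 and 43.6 CPM with the inhibitor and 19.3, 21.6 and 25.7 CPM with the degrader (-0.77 ± 0.09, adjusted p = 2.25e-08). The transcriptional repressor BCL6 differed by -0.76 ± 0.07 and the atypical cyclin CCNG2 by -0.75 ± 0.07, and neither overlapped between the groups. The 4 that were higher were the DNA damage and stress gene GADD45A (0.81 ± 0.06), KLF6 (0.67 ± 0.06), TSC22D3 (0.22) and BTG1 (0.18), and they are named because they are few. Against DMSO, 20 of the 23 were over it with the inhibitor and 11 with the degrader.

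Genes of G1/S and DNA replication were higher with the degrader in 30 of 34 cases and lower in none, with a median of 0.22. CDC6, a licensing factor for replication origins, was 36.5, 41.3 and 45.4 CPM with the inhibitor and 55.5, 59.8 and 65.6 CPM with the degrader (0.55 ± 0.07). UHRF1, which carries DNA methylation through replication, CDC45 and GINS4, of the replicative helicase, were 0.47 ± 0.05, 0.44 ± 0.04 and 0.43 ± 0.06 higher. The inhibitor was under DMSO in 32 of these 34 genes and the degrader in 8. Of 32 mitosis genes 19 were higher and none lower (11 and none with library size as the only scaling), and both compounds were under DMSO in 30. CDC20, the activator of the anaphase-promoting complex, was 0.32 ± 0.04 and the topoisomerase gene TOP2A 0.26 ± 0.05 higher. Among 32 MYC and ribosome biogenesis genes 21 were higher and none lower (1 lower with library size as the only scaling), with ODC1, the first enzyme of polyamine synthesis, at 0.42 ± 0.09. A lower level in RNA from bulk cultures can mean fewer cells that express a gene or less RNA per cell, and the 2 cannot be told apart here.

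Genes of BMP signalling and its ID targets were lower with the degrader in 7 of 10 cases, with a median of -0.42, and the inhibitory SMAD7 alone was higher (0.31). ID3 (ENSG00000117318, chromosome 1, 23557918 to 23559794), an inhibitor of helix-loop-helix factors, was 47.0, 49.7 and 53.7 CPM with the inhibitor and 19.4, 20.7 and 22.7 CPM with the degrader. Its difference of -1.25 ± 0.06 (adjusted p = 1.93e-16) was -1.26 in Rep 1 and -1.25 in Rep 2. BAMBI, a decoy receptor, differed by -1.18 ± 0.08, SMAD9 by -0.93 ± 0.08 and ID1 by -0.62 ± 0.05. The degrader was under DMSO in 4 of the 10 genes, ID3 among them (-0.98), and the inhibitor in none.

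Targets of the aryl hydrocarbon receptor, a ligand-activated factor that induces drug-metabolizing enzymes, were lower in 5 of 7 cases. CYP1A1 was 15.8, 17.2 and 19.5 CPM with the inhibitor and 5.06, 7.37 and 10.3 CPM with the degrader (-1.21 ± 0.12, adjusted p = 1.4e-09), at -1.60 in Rep 1 and -0.88 in Rep 2. The aldehyde dehydrogenase gene ALDH3A1 differed by -0.98 ± 0.07, CYP1B1 by -0.61 ± 0.08 and TIPARP, which limits the receptor, by -0.40 ± 0.05. The 2 that were higher were the repressor AHRR (0.29) and the quinone reductase NQO1 (0.20), and AHRR did not pass without the Rep 1 inhibitor library 3 (adjusted p = 0.0509) or the Rep 2 degrader library 1 (adjusted p = 0.0578). CYP1A1 was at the level of DMSO with the degrader (-0.10, adjusted p = 0.651) and above it with the inhibitor (1.11, adjusted p = 7.11e-09).

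**Figure D4:**
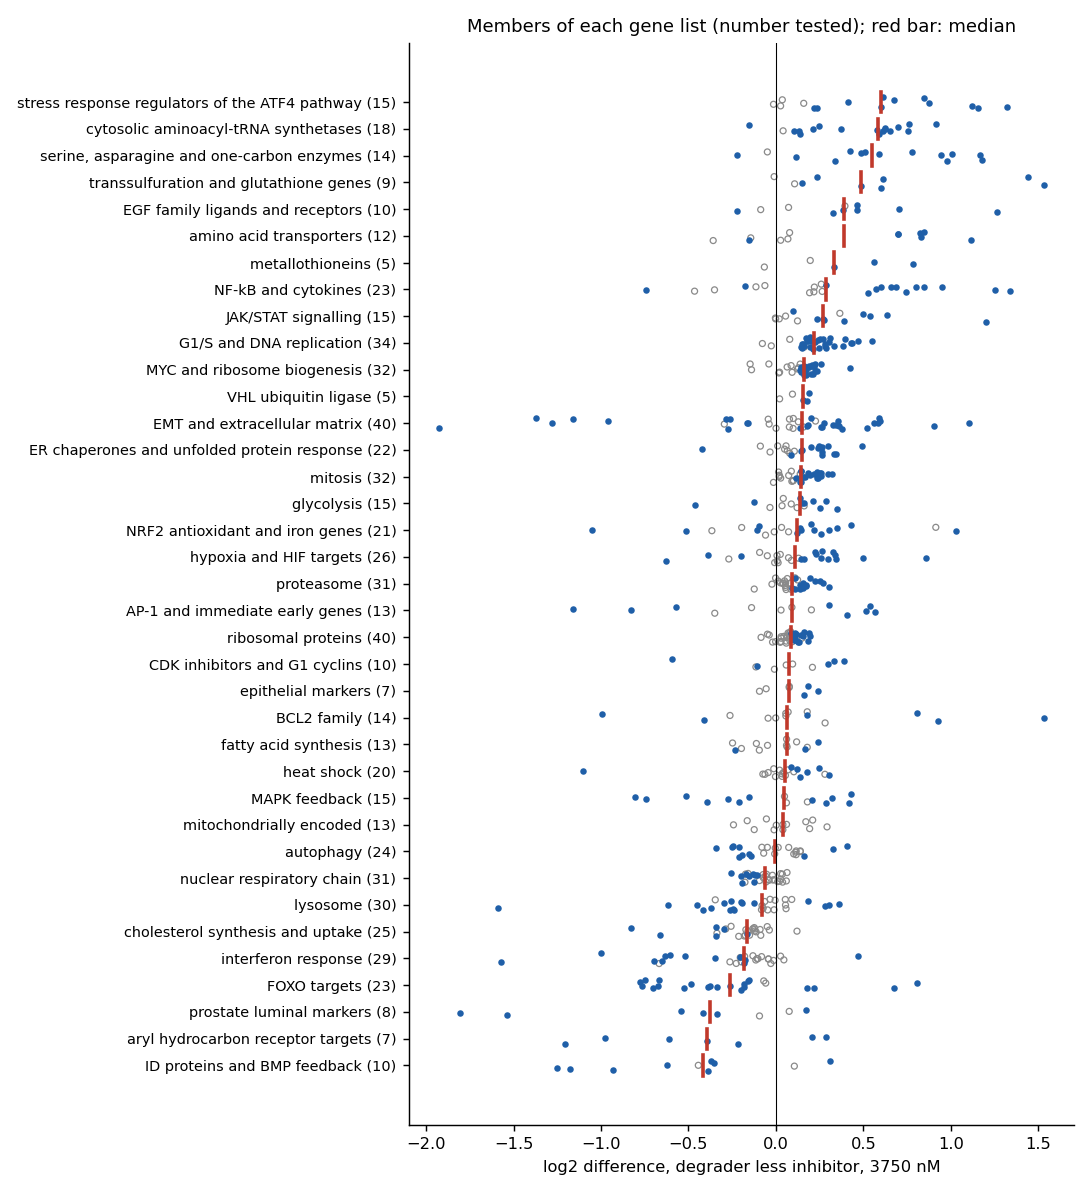
Log2 difference between degrader and inhibitor at 3750 nM (horizontal) for the tested members of each gene list with at least 5, 1 point per gene, blue where it passed and open where it did not, with a red bar at the list's median. The regulators of the ATF4 pathway have the median furthest right (0.60) and the ID and BMP list the median furthest left (-0.42).

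Inflammatory and cytokine signalling genes were more often higher than lower. Of 23 NF-kB and cytokine genes 12 were higher and 2 lower, with a median of 0.29. Against DMSO, the inhibitor was under it in 13 of the 23 and over it in 3. The degrader was under it in 2 and over it in 6. TNFAIP3, which ends NF-kB signalling, was 8.71, 9.82 and 11.8 CPM with the inhibitor and 22.2, 23.4 and 26.9 CPM with the degrader (1.25 ± 0.18, adjusted p = 2.01e-06). The chemokine gene CXCL8 was 0.95 ± 0.20 higher, by 1.36 in Rep 1 and 0.53 in Rep 2, and the apoptosis inhibitor BIRC3 0.84 ± 0.14. These 3 genes did not pass with libraries summed per Rep (adjusted p = 0.0591, 0.187 and 0.0976). The 2 that were lower were the macrophage growth factor CSF1 (-0.74 ± 0.15) and NFKB1 (-0.18 ± 0.05), and 4 members were lower with Rep as a block and without the Rep 2 inhibitor library 1.

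Of 15 genes of JAK/STAT signalling 9 were higher and none lower. The inhibitor was under DMSO in 7 of the 15 and over it in 0. The degrader was under it in 1 and over it in 6. SOCS2, a feedback inhibitor of cytokine receptors, was 7.59, 8.82 and 9.10 CPM with the inhibitor and 16.4, 19.9 and 22.2 CPM with the degrader (1.20 ± 0.08, adjusted p = 3.89e-13). Its relative SOCS3 was 0.64 ± 0.06, and the interleukin-6 receptor subunits IL6R and IL6ST were 0.54 ± 0.06 and 0.39 ± 0.09 higher. STAT3, STAT5A and STAT5B had no count in any of the 30 libraries. Interferon response genes went the other way, with 11 of 29 lower and ISG20 alone higher (0.47), and GBP2 (-1.001 ± 0.12), IFI6 (-0.70 ± 0.15) and OAS1 (-0.64 ± 0.09) were lower, as was GBP4. IFI6 was -0.995 in Rep 1 and -0.34 in Rep 2, where it did not pass (adjusted p = 0.105).

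Growth factor genes of the EGF family were higher in 6 of 10 cases, and the receptor gene ERBB2 was lower (-0.22 ± 0.04). With Rep as a block, and without the Rep 1 inhibitor library 1 or 3, 2 members were lower. The inhibitor was under DMSO in 5 of the 10 and over it in 2. The degrader was under it in 0 and over it in 4. Epigen, encoded by EPGN, was 3.52, 4.29 and 6.04 CPM with the inhibitor and 9.63, 10.5 and 11.8 CPM with the degrader (1.26 ± 0.09, adjusted p = 4.65e-12). The ligands NRG2, HBEGF and AREG were 0.70 ± 0.06, 0.46 ± 0.07 and 0.46 ± 0.06 higher. Feedback genes of the MAPK pathway split, with 5 of 15 higher and 7 lower. SPRY4, an inhibitor of receptor signalling to RAS, was 361, 368 and 378 CPM against 200, 211 and 226 CPM (-0.80 ± 0.04, adjusted p = 9.76e-16), SPRY1 was -0.75 ± 0.09 and the ETS factor ETV1 -0.51 ± 0.06, while PHLDA1 was 0.43 ± 0.04 higher. Among 13 AP-1 and immediate early genes 5 were higher, with JUN at 0.56 ± 0.04, FOSL2 at 0.54 ± 0.05 and FOSL1 at 0.51 ± 0.05. The inhibitor was under DMSO in 6 of the 13 and over it in 2. The degrader was under it in 1 and over it in 4. The 3 that were lower were EGR1 (-1.16), FOS (-0.83) and FOSB (-0.57), all at most 1.83 CPM in any library of the pair and with overlapping groups. FOSB did not pass without the Rep 1 inhibitor library 1 (adjusted p = 0.0567), the Rep 1 degrader library 1 (0.0515) or the Rep 1 degrader library 3 (0.0628).

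Matrix genes moved both ways, with 19 of 40 higher and 10 lower. TNC, the matrix protein tenascin C, was 26.8, 33.8 and 38.2 CPM with the inhibitor and 57.1, 70.2 and 80.7 CPM with the degrader (1.10 ± 0.10). It fell by 1.22 from DMSO with the inhibitor and did not pass with the degrader (-0.12, adjusted p = 0.467). CTGF, a secreted YAP target, was -1.37 ± 0.08 and the collagenase MMP13 -1.28 ± 0.12, and both were below DMSO with the degrader (-1.07 and -1.17).

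Antioxidant and iron genes under NRF2 were higher in 10 of 21 cases and lower in 4. HMOX1, which degrades heme, was 9.29, 10.7 and 11.8 CPM with the inhibitor and 19.97, 22.1 and 23.3 CPM with the degrader (1.03 ± 0.06), and the iron exporter SLC40A1 was -1.05 ± 0.07. In the BCL2 family 4 of 14 were higher, with the pro-apoptotic BIK at 0.93 ± 0.13 and PMAIP1 at 0.81 ± 0.06, and 2 were lower, with the pro-apoptotic BMF at -0.997 ± 0.07. Of 25 cholesterol genes 6 were lower and none higher (19 lower and 1 higher with Rep as a block, and 10 lower with library size as the only scaling), with the sterol reductase gene TM7SF2 at -0.83 ± 0.07. The inhibitor was over DMSO in 24 of these 25 genes and the degrader in 17. Of 30 lysosome genes 13 were lower and 4 higher, with the proteases CTSF at -0.62 ± 0.05 and TPP1 at -0.45 ± 0.05. Of 22 genes for ER chaperones and the unfolded protein response 13 were higher, with DNAJB9 at 0.49 ± 0.10, and CRELD1 was lower (-0.42 ± 0.08). Of the 8 tested luminal markers 5 were lower, with TMPRSS2 at -0.54 ± 0.10, and 1 was higher.

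The remaining lists are given by their counts. Autophagy genes were higher in 3 and lower in 8 of 24 (7 and 9 with Rep as a block), glycolysis genes higher in 7 and lower in 2 of 15, and CDK inhibitors and G1 cyclins higher in 3 and lower in 2 of 10. CDKN2B, an inhibitor of the kinases CDK4 and CDK6, was 66.3, 71.6 and 78.9 CPM with the inhibitor and 47.1, 47.5 and 49.7 CPM with the degrader, with no overlap (-0.59 ± 0.05, adjusted p = 1.61e-10). Proteasome genes were higher in 14 of 31 (7 with library size as the only scaling), ribosomal protein genes in 15 of 40 (4), and heat shock genes in 6 of 20 (3). With Rep as a block 23 ribosomal protein genes were higher and 1 lower. The heat shock gene that was lower was HSPA6, an inducible chaperone (-1.10 ± 0.13, adjusted p = 9.72e-08), at 8.06 to 10.3 CPM with the inhibitor and 3.95 to 5.06 CPM with the degrader, and it has a near-identical relative, so its count is uncertain. The ribosomal count was 6 without the Rep 1 inhibitor library 1, 9 without library 2 of the same Rep and 7 without the Rep 2 inhibitor library 2. The heat shock count was 3 without the Rep 1 inhibitor library 1 or the Rep 2 degrader library 1. Respiratory chain genes of the nucleus were lower in 9 of 31 (14), and in 5 without the Rep 2 inhibitor library 1, the Rep 1 degrader library 2 or the Rep 2 degrader library 2. Of the 13 mitochondrially encoded genes none passed with edgeR (3 with libraries summed per Rep and Rep as a block), and of 13 fatty acid synthesis genes 2 were higher and 1 lower (5 and 5 with Rep as a block), counts that ran from 0 to 2 in each direction as single libraries were left out. The autophagy genes that were higher numbered 5 without the Rep 1 degrader library 1, and the CDK inhibitors and cyclins that were lower numbered 1 without the Rep 1 degrader library 2. Metallothioneins, whose copies share reads, were higher in 3 of 5 with a median of 0.33, the epithelial markers in 3 of 7, and none of the 2 leukocyte and 3 fibroblast and endothelial markers that were tested passed.

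At 1500 nM the same pair of compounds, in other libraries, differed in 4408 genes (25.2%). Of the genes that passed at 3750 nM 56.8% also passed at 1500 nM, and of those that passed at 1500 nM 70.3% passed at 3750 nM. Among the 3098 shared genes 3083 had the same direction. The compound difference itself differed between the doses in 468 genes (2.67%), larger in the direction of the degrader at 3750 nM in 290 and in the other direction in 178, and in no gene with libraries summed per Rep (720 at an unadjusted p under 0.05).

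In the ATF4 pathway many compound differences were larger at the higher dose. The interaction passed in 8 of 15 regulators, 9 of 14 serine and one-carbon enzymes, 6 of 12 transporters and 11 of 18 synthetases, all upward, and also in 2 of 4 secreted hormones and 1 of 9 transsulfuration and glutathione genes (3 with Rep as a block). It also passed downward, in the blocked fit, in 1 of the enzymes and 2 of the synthetases. PHGDH differed by 0.21 ± 0.06 at 1500 nM and by 1.17 ± 0.06 at 3750 nM (interaction 0.96, adjusted p = 6.47e-09), and SLC7A5 by 0.36 ± 0.04 and 1.11 ± 0.04 (interaction 0.76, adjusted p = 2.43e-09). The interaction was 1.42 in ADM2, 1.09 in TNFAIP3, 1.07 in CHAC1 and 1.02 in PI3, the 4 furthest upward. The 4 furthest downward were PPP1R1B (-1.14), CYP1A1 (-1.02), COL2A1 (-0.99) and the placental phosphatase gene ALPP (-0.95), which has close paralogs. ALPP differed by 0.17 ± 0.07 at 1500 nM (adjusted p = 0.0544) and by -0.78 ± 0.07 at 3750 nM.

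The interaction also passed upward in 5 of 26 hypoxia genes, 5 of 23 NF-kB and cytokine genes, 3 of 15 JAK/STAT genes and 4 of 40 matrix genes (8 with Rep as a block), with 2 matrix genes downward. It passed downward in 5 of 10 ID and BMP genes and 3 of 7 aryl hydrocarbon receptor targets. In mitosis genes 30 of 32 were higher with the degrader at 1500 nM, against 19 at 3750 nM, and the interaction passed downward in 8 (15 with Rep as a block) and upward in none. FOXO targets were lower in 13 of 23 at 1500 nM and 17 at 3750 nM, and G1/S genes higher in 31 and 30 of 34, with no interaction passing in the G1/S list and 2, both upward, in the FOXO list. EPGN differed by 1.02 ± 0.09 at 1500 nM and 1.26 ± 0.09 at 3750 nM (interaction 0.25, adjusted p = 0.481), and BMF by -0.92 ± 0.07 and -0.997 ± 0.07 (adjusted p = 0.859). An interaction that misses the threshold does not show equal differences at the doses.

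**Figure D5:**
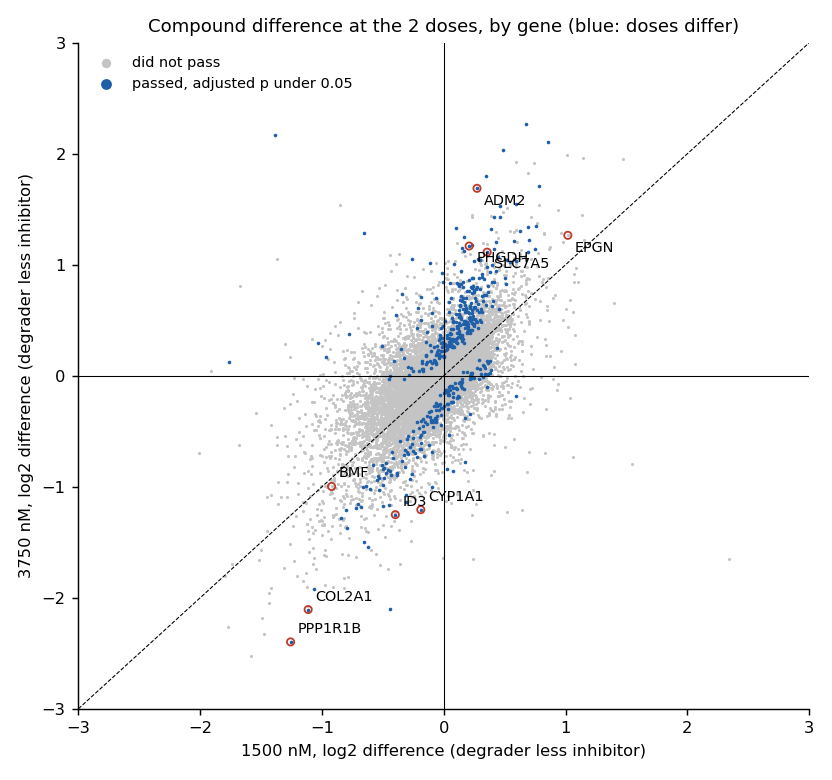
Log2 difference between degrader and inhibitor at 1500 nM (horizontal) and at 3750 nM (vertical), 1 point per gene, blue where the interaction between compound and dose passed, with 9 genes ringed in red and equality as a dashed line. PHGDH (0.21 and 1.17) and ADM2 (0.27 and 1.69) lie well above the dashed line, and EPGN (1.02 and 1.26) and BMF (-0.92 and -0.997) lie near it.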

How the data were processed

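RNA was sequenced from 30 PC3 libraries in 5 groups of 6. The authors deposited read counts per gene, made with featureCounts 1.5.0-p3 on GRCh38/hg38 per the submitters' processing notes; the aligner, annotation release and strand setting are not given in the sources used here, so reads of overlapping genes cannot be told apart. Counts were tested with edgeR 4.0.16 (R 4.3.3, limma 3.58.1): filterByExpr, TMM scaling, 1 quasi-likelihood fit over all 30 libraries, two-sided, with Benjamini-Hochberg adjustment over all genes tested at 0.05. Log2 differences are degrader minus inhibitor ± SE, and CPM values other than the leukocyte marker sums are TMM-scaled. The scripts were tested on simulated data.

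Alternatives were Rep as a block, libraries summed per Rep, each Rep alone, only the groups compared, library size scaling, no filter, DESeq2 1.42.0, libraries over 0.5% mitochondrial counts, and leaving out each of the 12 libraries. Same-numbered Reps deviated together: the Rep 2 less Rep 1 differences correlated at 0.507 to 0.672 over 10 pairs of groups. For the 2 groups compared here the value was 0.508, near the lowest. This is a check on the data, and the labels do not say what a Rep shares. No 2 libraries of the same group, among the 12 compared at 3750 nM, agreed within sampling noise. The Rep 1 inhibitor library 3 did not group with its labelled Rep. By chi-square per degree of freedom it was nearer to Rep 2 libraries 2 and 3 (6.77 and 9.16) than to Rep 1 libraries 1 and 2 (14.9 and 21.3). Its distance from Rep 2 library 1 was 21.7. The Rep 2 inhibitor library 1 also stood apart from its Rep. It was 16.05 and 17.48 from Rep 2 libraries 2 and 3, which were 4.38 from each other. From the Rep 1 libraries it was further still (21.65 to 66.69). The fits by Rep and with Rep as a block keep both libraries in their labelled Rep.

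Genes were named by rule: the PIM genes, VHL and HASPIN, the 10 highest and 10 lowest protein-coding genes, up to 4 per list and 4 per direction of the interaction. The PIM genes, VHL and HASPIN were named in any case, and of them only VHL met the conditions set for the others. The others passed in all libraries and in the summed fit with the block, had 1 direction in both Reps and averaged at least 5 CPM in 1 group. For the interaction genes these conditions were applied to the interaction. Members named because few went their way, those in the promoter search, and ATF4 were chosen after their values were seen. The members and 42 lists were chosen with earlier results of these data known. Promoter sequences are RefSeq's, for GRCh38.p14. Depth limits precision to counting error in genes of low count. Some genes are not reported here.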

Additional observations from a re-analysis of the deposited data

Results flagged for a closer look

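A single library stood apart from the other 5 of its group in 5 of the 264 groups examined. The nominal rate of this rule is about 1 group in 20 for independent values. Libraries of a Rep deviate together and the genes share the same libraries, so that rate is not a measure of chance here. PIM1 was 46.95 CPM in the Rep 1 inhibitor library 1, and the next library was at 44.4 CPM. DDIT3 was 17.44 CPM in the Rep 2 inhibitor library 3, with the next at 15.21 CPM. EPGN was 6.041 CPM in the Rep 1 inhibitor library 3, with the next at 4.468 CPM. With the degrader, STC1 was 6.888 CPM in the Rep 1 library 2 against 5.426 CPM in the next. SLC7A11 was 80.96 CPM in the Rep 2 degrader library 2 against 69.72 CPM.

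The interaction between compound and dose passed in 53 of the 130 genes named with values, and in 2.67% of all genes tested. Many of the 130 were chosen for a large difference at 3750 nM, which is itself a term of the interaction. Another rule took 4 genes per direction by the interaction alone. The count of 53 therefore partly reflects how the genes were chosen and cannot be set against the share of all genes. The interaction is given here on the log2 scale, positive where degrader minus inhibitor was higher at the higher dose. In the ATF4 pathway, it was 1.416 for ADM2, 1.074 for CHAC1, 1.006 for JDP2, 0.9548 for DDIT4, 0.939 for TRIB3, 0.5432 for CEBPG, 0.4434 for ATF4 and 0.5202 for STC2. Among enzymes of amino acid and one-carbon metabolism, it was 0.9605 for PHGDH, 0.9521 for PSAT1, 0.9244 for ASNS, 0.8065 for PCK2, 0.6233 for MTHFD2 and 0.2544 for MTHFD1L. Among transporters and synthetases, it was 0.7572 for SLC7A5, 0.7083 for SLC6A9, 0.6867 for SLC1A5, 0.6857 for SLC3A2, 0.6051 for GARS, 0.558 for MARS, 0.5425 for CARS, 0.5038 for YARS, 0.4103 for AARS and 0.3957 for IARS. Among signalling, stress and survival genes, it was 1.087 for TNFAIP3, 0.7751 for SOCS2, 0.2942 for SOCS3, 0.6449 for IL32, 0.4469 for NRG2, 0.488 for HMOX1, 0.569 for PMAIP1, 0.4425 for GADD45A and 0.3529 for KLF6. Among hypoxia genes and VHL, it was 0.6878 for STC1, 0.6583 for VEGFA, 0.2337 for BNIP3 and 0.1949 for VHL. Among the other genes with the highest differences, it was 1.018 for PI3, 0.6746 for BHLHA15 and 0.593 for AOX1. Among the BMP, ID and aryl hydrocarbon receptor genes, it was -0.8536 for ID3, -0.4988 for BAMBI, -0.4983 for ID1, -1.017 for CYP1A1, -0.4236 for CYP1B1 and -0.2903 for TIPARP. Among the remaining genes, it was -1.14 for PPP1R1B, -0.9925 for COL2A1, -0.9494 for ALPP, -0.9198 for FOLH1, -0.8607 for SPARC, -0.5735 for CTGF and -0.22 for SPRY4. None of these interactions passed in edgeR's fit with libraries summed per Rep, where 0 genes passed and 720 had an unadjusted p under 0.05.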

How the results depend on the processing

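With Rep as a replicate block, 6911 genes differed between the compounds at 3750 nM in place of 5451, and 1086 in place of 468 in the interaction with dose. In the compound difference at 3750 nM the block changed the call of PIM1 and of no other gene named by rule or in the text. In the interaction 24 of the 130 genes named with values passed with the block and not without it, FAM83A (adjusted p = 0.245 without the block and 0.000186 with it) and SLC7A11 (0.125 and 0.0070) among them, and 0 the other way. With libraries summed per Rep, which leaves 2 samples per group, 1246 genes differed at 3750 nM (653 higher, 593 lower), 157 at 1500 nM and 0 in the interaction, and 33 of the 123 genes that passed and are named with values lost their call; with the block added 5828 differed at 3750 nM, and 471 genes passed in the interaction. DESeq2 gave 5334 and 569. A difference of at least 2-fold besides left 313 genes at 3750 nM (98 higher, 215 lower), 124 at 1500 nM and 22 in the interaction. In Rep 2 alone 2709 genes passed at 1500 nM and 269 in the interaction, and without a filter on low counts 229 did in the interaction. Leaving out single libraries gave 4721 to 5387 genes at 3750 nM. Signs turned in 3 genes that did not pass: PIM3 was 0.0548 in Rep 1 alone and ran from -0.0486 to 8.42e-05 without single libraries, GDF15 ran from -0.0661 to 0.0060, and ATF3 from -0.0053 to 0.0821, with -0.0168 when library size was the only scaling. The cause was not tested.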
